A study of Homo sapiens with 6 samples.

Results

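Hs578T, an established human breast cancer cell line of mesenchymal type, was engineered to express the homeobox gene HOXA5 on induction, and RNA taken 6 h after induction was compared with RNA from the same cells before induction. The comparison uses 4 of the 6 arrays of the series, namely 2 arrays at 0 h (uninduced) and 2 at 6 h (induced), and pairs them by the experiment number in their titles. The 9 h arrays were normalised with these and entered the fit for its estimate of the spread. The labels describe the experiments as separate batches of RNA from cells plated 24 h ahead of induction in 10 cm dishes. All groups carried the inducible HOXA5 construct. The inducing agent, its dose and the number of clones are not given in the sources used here, and with no uninduced array at 6 h among the samples used here, induction, the inducing agent and time in culture cannot be told apart. The title of the series names HOXA5 target genes as its subject. The transcript of HOXA5 was not analysed here, since the probe table used pairs no probe set with that symbol, and the induction was not checked. Of 22215 probe sets without the controls, 18350 were tested, and they named 10436 genes.

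HOXA5 belongs to the homeobox family, whose members bind short AT-rich DNA motifs, often together with PBX and MEIS cofactors, and pattern the body axis in the embryo. In the breast its expression is often lost in carcinoma, and forced expression has been linked to apoptosis, to the retinoid pathway and to the growth factor pleiotrophin (PTN). Cells that receive a new stimulus usually switch on immediate-early genes first, whose short-lived mRNAs encode transcription factors and feedback inhibitors, ahead of slower changes in metabolic and structural genes.

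The deposited intensities were not scaled between arrays. The median intensity was 95.8 and 49.1 units at 0 h in experiments 1 and 2, and 18.7 and 39.1 units at 6 h, so the dimmest array of the 4 was the 6 h array of experiment 1. The cre hybridisation controls read 87.7 times the array median at 0 h and 341 times at 6 h in experiment 1, against 71.7 and 60.5 times in experiment 2. Ratios of 3' to 5' signal, a sign of RNA quality, lay between 0.863 and 1.09 for GAPDH and between 0.918 and 1.09 for ACTB over the 4 arrays. The part of array brightness in the results was not tested. Without scaling, the median gene changed by -1.36 on the log2 scale, so every change below is relative to the whole array after quantile normalisation. Normalised values below 12.7 units were set to that floor, and the median normalised value was 72.6 units. The mesenchymal character of the line was visible in its markers: VIM, an intermediate filament of mesenchymal cells, read 4775 and 7655 units at 0 h and 4318 and 5961 units at 6 h, and FN1, encoding fibronectin, 3369 and 2705 units at 0 h and 3199 and 2932 units at 6 h. CDH1, the epithelial cadherin, read 15.3 and 12.7 units at 0 h and 12.7 units on both 6 h arrays, although the keratin KRT18 was bright at 3518, 850, 1918 and 780 units in the order 0 h (experiments 1 and 2) and 6 h (experiments 1 and 2). Values that follow are given in that order of experiments.

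No probe set passed an adjusted p of 0.05 in the paired limma fit with Benjamini-Hochberg adjustment (0 of 18350, 0%), and the lowest adjusted p was 0.0638, shared by 6 probe sets. The fit took in all 6 arrays, so the 9 h arrays added to the estimate of the spread. These p-values measure the spread between these arrays, which may be technical. At an unadjusted p under 0.05 there were 1777 probe sets (9.68%), where 918 would be reached by chance, and 875 (4.77%) in the fit without the pairing. When the test was limited to probe sets above the floor on all 4 arrays, 25 passed, 17 of them higher at 6 h and 8 lower. When each array was scaled by its trimmed mean, 4 passed, all higher. With the 0 h and 6 h arrays alone, which leaves 1 residual degree of freedom, 115 passed, 66 of them higher and 49 lower. Dropping a 0 h array gave 162 calls (experiment 1 dropped) or 54 (experiment 2 dropped), and dropping a 6 h array gave 11 or 5 in the same order. The words higher and lower below therefore describe measured differences, and a test is named where one was passed.

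By size, 123 genes (1.18%) were at least 2-fold higher at 6 h in both experiments and 109 (1.04%) were at least 2-fold lower in both. Under trimmed-mean scaling the same counts were 216 and 58, so the balance of higher and lower genes depended on the scaling. A further 111 genes (1.06%) differed at least 2-fold in opposite directions in the experiments. Smaller differences of 1 direction were common: 2819 genes (27.0%) were higher in both experiments, 2594 (24.9%) lower in both, and 4397 (42.1%) went opposite ways. Both 6 h arrays lay above both 0 h arrays for 1772 genes (17.0%) and below them for 1586 (15.2%). Across 10436 genes the changes of the experiments correlated with Pearson's r of 0.139, a description across genes, which are not independent, on arrays that were normalised together. Below, the 5665 better measured genes are those above the floor on all 4 arrays and above the median value on both arrays of the brighter group. A gene can pass that filter through the group in which it is high, so it serves only to choose genes. It kept 42 of those at least 2-fold higher in both experiments and 17 of those at least 2-fold lower. Of the 111 that differed at least 2-fold in opposite directions it kept 6.

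**Figure D1:**
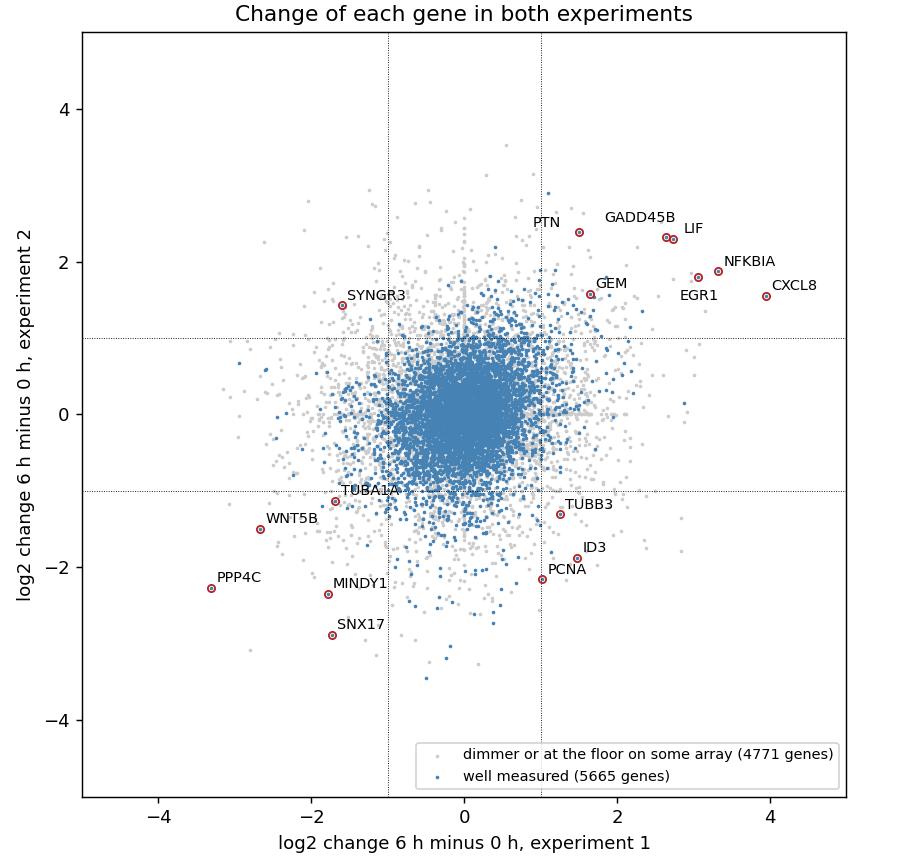
Log2 change from 0 h to 6 h of each tested gene in experiment 1 (horizontal axis) and experiment 2 (vertical axis), with the 5665 better measured genes in blue, the others in grey and dotted lines at 2-fold. Most genes form a round cloud about 0, and GADD45B, LIF, EGR1, NFKBIA and CXCL8 stand apart at the upper right, whereas ID3, PCNA and TUBB3 lie at the lower right with opposite changes.

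The immediate-early transcription factors were the most shifted of the gene groups examined. Of 26 tested members, 19 were higher at 6 h in both experiments and 2 lower in both, and 15 had both 6 h arrays above both 0 h arrays (57.7%, against 17.0% of all genes). Their median log2 change was 0.74, with 0.67 in experiment 1 and 0.84 in experiment 2, against 0.01 for all genes. EGR1, a zinc finger factor induced by growth factors and stress, read 68.5 and 200 units at 0 h and 568 and 696 units at 6 h. Both 6 h arrays stood above both 0 h arrays, with a log2 change of 2.43 ± 0.29 (standard error of the paired fit, 2 arrays per group, as for all ± values here) and an adjusted p of 0.0638 in limma. The second EGR1 probe set went the same way, by 0.84 and 2.15 in the experiments. IER2, another immediate-early gene, read 934 and 1275 units at 0 h and 2518 and 3451 units at 6 h. Its difference was nearly equal in the experiments, 1.43 and 1.44 on the log2 scale (adjusted p 0.0638, limma). ATF3, a stress-induced factor of the ATF/CREB family, was 67.9 and 224 units at 0 h and 187 and 585 units at 6 h. Here the groups overlapped, because experiment 2 was brighter at both times, while the change within each experiment was alike (1.46 and 1.38). MAFF, a small MAF protein, showed the same layout, with 71.5 and 389 units at 0 h and 358 and 996 units at 6 h.

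The EGR1 promoter is known for serum response elements, and its sequence is shown for the CArG boxes (CC, then a run of A or T, then GG) that bind serum response factor. The stretch is chr5:138465229-138465528 on the plus strand of GRCh38.p14, from RefSeq, 250 bases before to 50 after the gene start, with the matches in capitals. They lie 105 to 96 and 83 to 74 bases before the start.
EGR1: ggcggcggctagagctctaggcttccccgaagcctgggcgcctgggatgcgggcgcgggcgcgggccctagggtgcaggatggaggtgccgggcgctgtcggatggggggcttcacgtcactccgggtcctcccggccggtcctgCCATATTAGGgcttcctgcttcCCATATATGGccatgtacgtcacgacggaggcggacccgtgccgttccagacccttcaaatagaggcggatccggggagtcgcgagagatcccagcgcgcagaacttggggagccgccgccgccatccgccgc
CArG boxes occur in 1.29% of 27305 promoters of the same length and in 1.27% of those of tested genes. A match describes the letters only.

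Genes of the NF-kB pathway, in which inhibitor proteins hold Rel family factors in the cytoplasm until a signal removes them, were also mostly higher. Of 21 tested subunits, inhibitors and feedback genes, 13 were higher in both experiments (61.9%, against 27.0% of all genes) and 2 lower in both. Their median log2 change was 0.58 (0.45 and 0.76). NFKBIA, the inhibitor IkB-alpha and itself a target of the pathway, read 29.9 and 126 units at 0 h and 298 and 463 units at 6 h, a log2 change of 2.60 ± 0.51. TNFAIP3, the ubiquitin-editing inhibitor A20, read 105 and 270 units at 0 h and 389 and 796 units at 6 h. For both inhibitors the 6 h arrays lay above the 0 h arrays. The subunit gene RELB read 44.3 and 145 units before and 199 and 321 units after, again without overlap. NFKB2 was 61.2 and 155 units at 0 h and 204 and 332 units at 6 h by its brightest probe set, but its other 2 probe sets were near the floor and changed by 0.18 and -0.14 on average. The adjusted p in limma was 0.291 for NFKBIA, 0.31 for TNFAIP3, 0.302 for RELB and 0.369 for NFKB2.

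The NFKBIA promoter (chr14:35404700-35404999, minus strand of GRCh38.p14, RefSeq) is printed because kappa-B sites are known to drive this gene, and the capitals mark the kappa-B match, 81 to 72 bases before the start on the other strand.
NFKBIA: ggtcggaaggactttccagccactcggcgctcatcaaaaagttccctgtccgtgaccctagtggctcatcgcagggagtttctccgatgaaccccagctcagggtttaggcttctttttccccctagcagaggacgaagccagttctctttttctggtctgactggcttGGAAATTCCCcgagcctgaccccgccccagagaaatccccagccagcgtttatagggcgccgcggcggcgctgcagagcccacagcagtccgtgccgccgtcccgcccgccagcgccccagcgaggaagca
Such a match is found in 10.8% of all promoters and in 13.1% of those of tested genes. It was present in 5 of the 31 promoters (16.1%) that matched the 42 better measured higher genes, namely those of ATXN2L, GADD45B, NFKBIA, PPP1R13B and TNFAIP3, and in 3 of the 15 promoters (20.0%) matched to lower genes.

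Among 20 cytokine and chemokine genes, 11 were higher in both experiments (55.0%, against 27.0% of all genes) and 4 lower in both. Their median log2 change was 0.26 (0.20 and 0.38). It became 0.04 or 0.75 when the 6 h array of experiment 2 or of experiment 1 was dropped. CXCL8, the neutrophil chemokine interleukin 8, had the largest mean difference of the group. It read 70.6 and 44.3 units at 0 h and 1086 and 130 units at 6 h, so both 6 h arrays were higher but by very different amounts (3.94 and 1.56 on the log2 scale). CXCL8 was the only gene with several probe sets whose probe sets were all, here both, at least 2-fold higher in both experiments. LIF, a cytokine of the interleukin 6 family, read 28.0 and 76.4 units at 0 h and 186 and 376 units at 6 h. Its log2 change of 2.51 ± 0.30 had an adjusted p of 0.0638 in limma. IL11 of the same family was 19.8 and 83.3 units at 0 h against 79.8 and 146 units at 6 h, with overlapping groups, and its other probe set changed by -0.38. IL6 itself read 59.2 and 58.6 units at 0 h and 64.8 and 54.1 units at 6 h, a difference well within the spread.

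GADD45B, a stress and TGF-beta responsive gene that acts on the p38 and JNK kinases, was among the clearest differences. The normalised intensity was 146 and 294 units at 0 h and 908 and 1474 units at 6 h, and the lower 6 h array was above the higher 0 h array. The log2 change was 2.48 ± 0.26 (adjusted p 0.0638, limma), and all 4 of its probe sets were higher in both experiments. GEM, a small GTP-binding protein, was above its own 0 h value in each experiment by nearly the same step, 1.65 and 1.58 on the log2 scale. Because its 0 h values, 143 and 598 units, differed more between experiments than between times (449 and 1784 units at 6 h), the groups overlapped and the standard error was 0.21 with pairing and 0.89 without it. GADD45B, LIF and EGR1 passed an adjusted p of 0.05 in limma in 5 alternative fits. Those used trimmed-mean scaling, an added offset, the filter on all 4 arrays, the 0 h and 6 h arrays alone, and robust moderation. No probe set passed in the main fit or with unscaled values, loess, a floor at the 10th percentile or no filter. The same held without the pairing, with lot batch in place of experiment number, and without an intensity trend. PMAIP1, the BH3-only protein NOXA, read 301 and 502 units at 0 h and 706 and 1191 units at 6 h, and both of its probe sets were higher in both experiments. SAT1, the enzyme that starts polyamine breakdown, read 327 and 259 units at 0 h and 761 and 762 units at 6 h, and all 3 of its probe sets were higher in both. The other polyamine genes moved less, with ODC1, the first enzyme of synthesis, at 1132 and 1847 units before and 1444 and 2128 units after.

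Several further genes were higher in both experiments by their leading probe set. SPHK1, sphingosine kinase, and TIPARP, a mono-ADP-ribosyltransferase, were chosen after their values were seen, for an adjusted p of 0.111 in limma. SPHK1 read 152 and 548 units at 0 h and 438 and 1389 units at 6 h, with overlap between groups, and TIPARP 462 and 443 units at 0 h and 1042 and 1148 units at 6 h, without overlap. STC2, a secreted glycoprotein, read 228 and 461 units before and 689 and 1059 units after, but 494 and 415 units before and 560 and 405 units after by its other probe set. HHLA1, an endogenous retrovirus-associated gene, read 22.6 and 24.4 units at 0 h and 81.5 and 84.7 units at 6 h, which are dim values with little spread. PPP1R13B, which encodes the p53-binding protein ASPP1, read 25.2 and 28.1 units before and 82.1 and 81.2 units after. For HHLA1, PPP1R13B and the leading probe set of STC2 both 6 h arrays stood above both 0 h arrays.

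**Figure D2:**
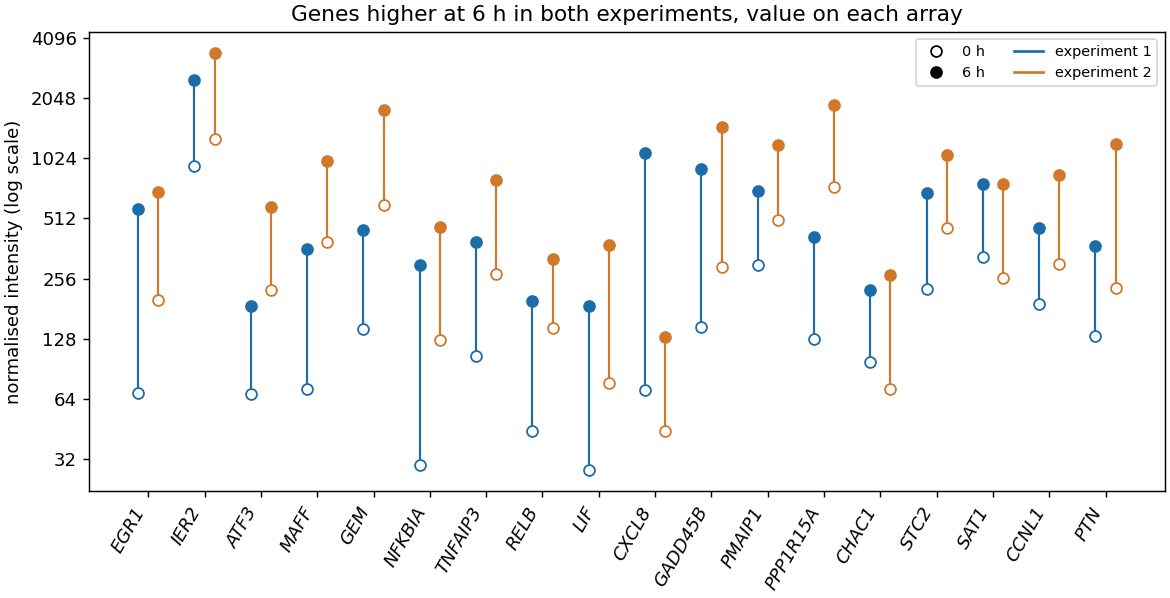
Normalised intensity (log scale) of leading higher genes on each array, with open points for 0 h, filled points for 6 h, and a line joining the arrays of one experiment (blue for experiment 1, orange for experiment 2). Every line runs upward, and for GEM, ATF3, MAFF and PPP1R15A the 6 h point of experiment 1 lies below the 0 h point of experiment 2.

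In the integrated stress response, phosphorylated eIF2-alpha favours translation of ATF4 and its targets. Of 24 tested genes of this response, 10 were higher in both experiments (41.7%, against 27.0% of all genes) and 3 lower in both. The median log2 change was 0.43, made up of 0.10 in experiment 1 and 0.85 in experiment 2, and it became 0.16 or 0.20 when the 6 h or the 0 h array of experiment 2 was dropped. PPP1R15A, the phosphatase subunit GADD34 that reverses eIF2-alpha phosphorylation, read 127 and 734 units at 0 h and 412 and 1888 units at 6 h. Experiment 2 was brighter at both times, and the steps within the experiments were 1.69 and 1.36. CHAC1, a glutathione-degrading enzyme and ATF4 target, read 97.9 and 71.7 units at 0 h and 224 and 266 units at 6 h, without overlap. SLC3A2, the heavy chain of amino acid transporters, was 328 and 624 units before and 698 and 1153 units after. SLC7A11, the cystine transporter, had 260 and 131 units at 0 h and 520 and 183 units at 6 h, so its groups overlapped. Of 16 aminoacyl-tRNA synthetases, 6 were higher in both experiments (37.5%, against 27.0% of all genes) and 1 lower in both. CARS1, the cysteinyl-tRNA synthetase, read 1328 and 1065 units before and 1703 and 2827 units after.

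The PPP1R15A promoter (chr19:48872171-48872470, plus strand of GRCh38.p14, RefSeq) holds the full cAMP response element TGACGTCA, bound by ATF and CREB factors, 58 to 51 bases before the start, in capitals.
PPP1R15A: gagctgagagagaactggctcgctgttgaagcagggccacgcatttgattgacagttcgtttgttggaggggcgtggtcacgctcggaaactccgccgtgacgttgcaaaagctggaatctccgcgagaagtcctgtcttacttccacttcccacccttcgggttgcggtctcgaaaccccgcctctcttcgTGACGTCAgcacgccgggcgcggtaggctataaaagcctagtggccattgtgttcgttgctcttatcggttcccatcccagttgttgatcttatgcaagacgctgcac
The element was present in 540 of 27305 promoters (1.98%), in 3.18% of those of tested genes and in 4 of the 31 promoters of better measured higher genes (12.9%), those of CCNL1, MAFF, PPP1R15A and ZNF562. None of the 15 matched promoters of the better measured lower genes held it. The AP-1 motif TGANTCA was in 3 of the 31 (9.68%, against 7.76% of all promoters and 5.15% of those of tested genes), and the EGR motif GCGNGGGCG in 7 (22.6%, against 9.28% of all promoters and 14.9% of those of tested genes). Motifs were searched on both strands. These genes were chosen by their values, so the counts are descriptions without a test.

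Feedback inhibitors of MAP kinase signalling were more often higher than lower. Of 14 tested, 10 were higher in both experiments (71.4%, against 27.0% of all genes) and 0 lower in both. Both 6 h arrays lay above both 0 h arrays for 5 (35.7%, against 17.0% of all genes), and 0 were at least 2-fold higher in both experiments. The median log2 change was 0.35 (0.31 and 0.41). DUSP1, a nuclear phosphatase of MAP kinases, read 568 and 721 units at 0 h and 1085 and 1243 units at 6 h. DUSP8, which acts on JNK and p38, read 41.9 and 68.8 units before and 83.5 and 255 units after. Neither gene had overlapping groups. DUSP6, specific for ERK, was 104 and 68.2 units at 0 h and 299 and 83.7 units at 6 h, a change carried mostly by experiment 1. SPRY4, an inhibitor of receptor tyrosine kinase signalling, read 109 and 179 units before and 247 and 222 units after. Upstream of these, HBEGF, a ligand of the EGF receptor, was 184 and 430 units at 0 h and 362 and 1109 units at 6 h, higher in each experiment with overlapping groups. The growth factors and receptors as a whole (31 genes) had a median of -0.02. Of them 10 were higher in both (32.3%, against 27.0% of all genes) and 8 lower in both (25.8%, against 24.9%). Among 20 inducible small GTPases and RGS proteins, RGS2, which limits G protein signalling, read 51.1 and 101 units at 0 h and 218 and 162 units at 6 h.

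The genes listed as linked to HOXA5 showed no common direction. The list was chosen with earlier results of these data known, so its members are not independent of them. Of 16 tested members, 5 were higher in both experiments (31.25%, against 27.0% of all genes), 2 lower in both (12.5%, against 24.9%) and 6 opposite. Their median log2 change of 0.12 (-0.03 and 0.08) became -0.04 when the 6 h array of experiment 2 was dropped. PTN, encoding the secreted growth factor pleiotrophin, read 132 and 231 units at 0 h and 375 and 1204 units at 6 h by its leading probe set, a log2 change of 1.94 ± 0.38 (adjusted p 0.291, limma). Its other 3 probe sets did not follow, with changes of -0.59, -0.05 and -0.09, and the median over the probe sets was -0.07. The difference in PTN therefore rests on 1 of 4 probe sets. MDK, encoding the related factor midkine, read 90.7 and 53.3 units before and 127 and 133 units after.

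IGF1, an insulin-like growth factor, read the floor value of 12.7 units on both 0 h arrays and 33.5 and 45.4 units at 6 h, and PTGS2, the inducible cyclooxygenase, read 12.7 and 29.9 units at 0 h and 38.2 and 69.9 units at 6 h. Both stayed below the median value of the arrays. CD24, a surface glycoprotein tied to differentiation state in breast cells, was lower. It read 141 and 98.0 units at 0 h and 52.2 and 51.9 units at 6 h without overlap, and 5 of its 6 probe sets were lower in both experiments (adjusted p 0.403 in limma for the leading one). TWIST1, a driver of the mesenchymal state, was 59.7 and 46.0 units before and 44.0 and 18.4 units after.

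For the remaining HOXA5-linked genes the experiments disagreed or the values lay close together by the leading probe set. CASP2 and CASP8, initiator caspases, read 60.7 and 45.0 units and 136 and 117 units at 0 h, and 50.5 and 62.5 units and 99.1 and 134 units at 6 h. RARB, a retinoic acid receptor, was 225 and 116 units before and 145 and 119 units after, lower in experiment 1 and level in experiment 2. Another RARB probe set changed by -1.26 and -0.35 in the experiments, and the remaining one by 0.03 on average. RARA was 67.7 and 58.9 units before and 59.2 and 65.1 units after. VEGFA, the endothelial growth factor, had no common direction by its leading probe set, at 293 and 148 units before and 251 and 322 units after. Its other probe sets changed by 0.64, 0.33 and -0.12 on average, and those at 0.64 and 0.33 were higher in both experiments without overlap. HIF1A (1451 and 967 units before, 1816 and 995 units after) and MET, the hepatocyte growth factor receptor (596 and 673 units before, 671 and 731 units after), differed by no more than about their standard errors of 0.18 and 0.19. The other MET probe sets changed by -0.87, -0.19 and -0.18 on average, the first of them lower in both experiments. For HIF1A and MET the sign turned in unscaled values relative to the shift of all genes. Of these 4 arrays, EFNA1 and KDR were above the floor only on the 6 h array of experiment 1.

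The PTN promoter (chr7:137343684-137343983, minus strand of GRCh38.p14, RefSeq) is shown because PTN was the only higher gene of the 31 whose window held the HOX-PBX motif TGATNNAT. The match lies on the other strand, 233 to 226 bases before the start, and an AP-1 match lies 42 to 48 bases after it; both are in capitals.
PTN: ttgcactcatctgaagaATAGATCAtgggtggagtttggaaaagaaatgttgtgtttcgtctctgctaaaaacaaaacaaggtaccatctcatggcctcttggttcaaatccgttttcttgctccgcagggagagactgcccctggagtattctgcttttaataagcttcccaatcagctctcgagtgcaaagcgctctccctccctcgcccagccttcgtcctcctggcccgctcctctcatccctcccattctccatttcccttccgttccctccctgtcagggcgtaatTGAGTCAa
The HOX-PBX motif was in 7.60% of all promoters, in 3.84% of those of tested genes and in 3.23% of the promoters of better measured higher genes, that is in 1 of 31, and in 0 of the 15 promoters of lower genes. The window covers only the sequence next to the start.

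**Figure D3:**
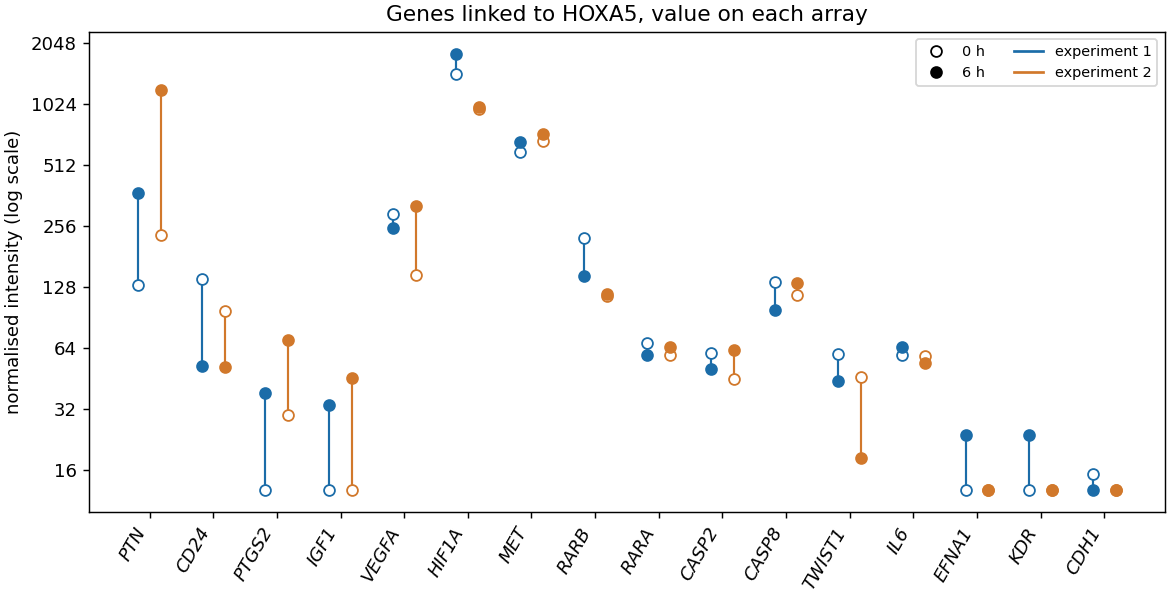
Normalised intensity (log scale) of the 16 tested genes linked to HOXA5 on each array, drawn as in the plot of leading higher genes. PTN, PTGS2 and IGF1 run upward and CD24 and TWIST1 downward in both experiments, while the others run opposite ways, lie close together or sit at the floor of 12.7 units.

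Among 20 tested HOX genes, 6 were higher in both experiments (30.0%, against 27.0% of all genes) and 9 lower in both (45.0%, against 24.9%). Their median of -0.16 became 0.05 under trimmed-mean scaling and 0.04 when the 0 h array of experiment 2 was dropped. HOXC11 read 67.5 and 81.1 units at 0 h and 44.2 and 21.4 units at 6 h, and HOXC5 29.1 and 79.2 units at 0 h and 12.7 and 16.8 units at 6 h. HOXC13 was 45.6 and 15.3 units before and at the floor on both arrays after, whereas HOXC8 read 21.5 and 12.7 units before and 24.1 and 33.4 units after. All of these lie near or below the median value. Of the cofactors, MEIS1 was 33.1 and 33.6 units at 0 h and 74.9 and 54.4 units at 6 h, and MEIS2 was 221 and 124 units before and 163 and 80.8 units after, lower in each experiment with overlap. PBX2 read 66.6 and 78.9 units at 0 h and 92.2 and 102 units at 6 h.

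Genes of cell death moved in both directions. Of 17 BCL2 family genes, 6 were higher in both experiments (35.3%, against 27.0% of all genes) and 6 lower in both (35.3%, against 24.9%). Beside PMAIP1, MCL1, the anti-apoptotic protein that NOXA binds, read 434 and 576 units at 0 h and 725 and 1217 units at 6 h, and 4 of its 5 probe sets were higher in both experiments. BCL2L1, encoding the anti-apoptotic BCL-XL, was lower, at 230 and 139 units before and 52.9 and 102 units after. BAX, a pore-forming pro-apoptotic protein, read 44.4 and 39.6 units at 0 h and only the floor value at 6 h. By this probe set it was on average at least 3.29-fold lower, while its other probe set differed by only -0.17. Caspases, death receptors and adaptors had 10 of 25 higher in both experiments (40.0%, against 27.0% of all genes) and 2 lower in both. DAXX, an adaptor and histone chaperone, read 64.1 and 84.9 units before and 108 and 154 units after, and CASP6, an effector caspase, 90.4 and 83.5 units before and 57.2 and 35.0 units after. The p53 targets were divided as evenly, with 9 of 24 higher in both experiments (37.5%, against 27.0% of all genes) and 9 lower in both (37.5%, against 24.9%). TP53I3, a p53-induced oxidoreductase, was 143 and 162 units at 0 h and 47.5 and 108 units at 6 h, and PLK2, a p53-responsive kinase, was 364 and 30.4 units before and 71.0 and 18.9 units after.

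PPP4C, the catalytic subunit of protein phosphatase 4, was lower at 6 h in each experiment. It read 140 and 153 units at 0 h and 14.1 and 31.8 units at 6 h, a log2 change of -2.79 ± 0.46 (adjusted p 0.159 in limma, and 0.0113 when only probe sets above the floor on all 4 arrays were tested). SNX17, a sorting nexin that recycles integrins and LDL receptor family members, read 249 and 276 units before and 74.9 and 37.4 units after (-2.31 ± 0.41, adjusted p 0.2 and 0.0312 in the same limma fits). MINDY1, a deubiquitinase for long ubiquitin chains, was 121 and 80.4 units at 0 h and 35.0 and 15.8 units at 6 h. None of these genes had overlapping groups, and each is read by 1 tested probe set.

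WNT pathway genes were more often lower than higher. Of 24 tested, 9 were lower in both experiments (37.5%, against 24.9% of all genes) and 5 higher in both. Their median was -0.18, which was -0.05 under trimmed-mean scaling and 0.03 without the 6 h array of experiment 2. WNT5B, a non-canonical ligand, read 93.7 and 98.0 units at 0 h and 14.8 and 34.8 units at 6 h. FZD2, a Frizzled receptor, was 127 and 79.9 units before and 44.4 and 12.7 units after. LRP5, the co-receptor, read 114 and 71.0 units before and 57.9 and 40.7 units after. In each of these the 6 h arrays lay below the 0 h arrays. Their limma adjusted p was 0.374, 0.319 and 0.541. AXIN1 of the same list went the other way without overlap, with 30.7 and 131 units before and 139 and 194 units after (adjusted p 0.442, limma). FJX1, a secreted relative of the planar polarity protein four-jointed, showed little spread, with 214 and 201 units at 0 h and 88.7 and 61.8 units at 6 h. ITGBL1, an integrin beta-like secreted protein, was the only gene with several probe sets whose probe sets, here both, were at least 2-fold lower in both experiments. Its leading probe set read 228 and 48.6 units before and 72.6 and 16.2 units after.

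TUBA1A, an alpha-tubulin, read 1385 and 687 units at 0 h and 431 and 315 units at 6 h. SLC5A3, the myo-inositol transporter, was 317 and 199 units before and 143 and 81.4 units after, and all 3 of its probe sets were lower in both experiments. KCNS3, a potassium channel subunit, and PRR16 changed by closely similar amounts in the experiments: KCNS3 by -1.11 and -1.12 and PRR16 by -1.30 and -1.19. SULT1B1, a sulfotransferase, read 77.7 and 78.0 units at 0 h and 21.4 and 34.0 units at 6 h. The groups did not overlap for any of these.

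**Figure D4:**
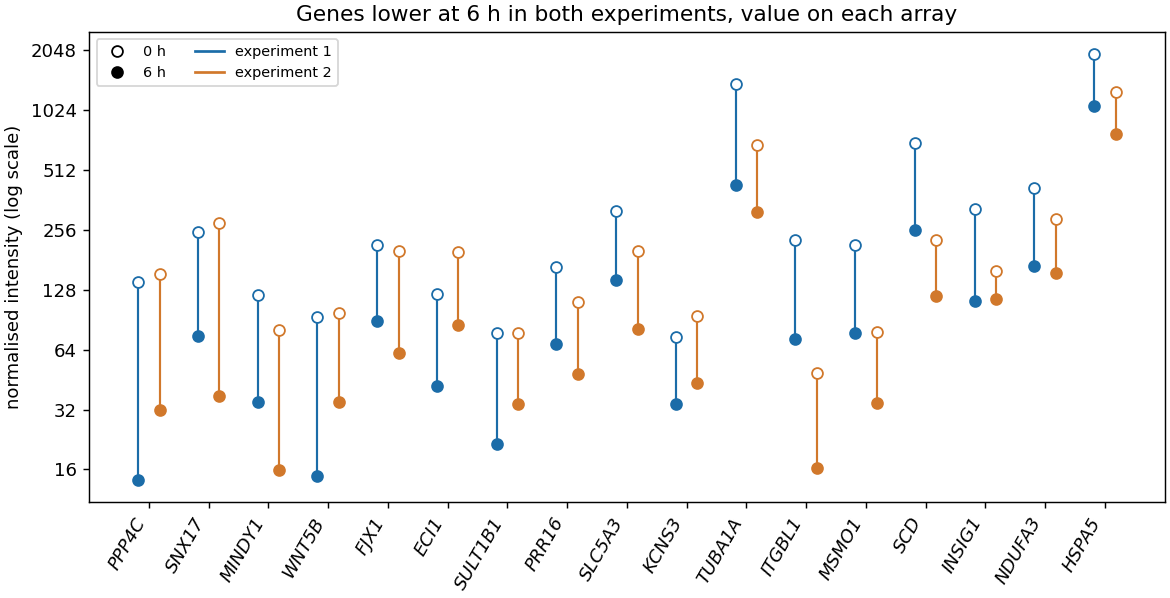
Normalised intensity (log scale) of leading lower genes on each array, drawn as in the plot of leading higher genes, with the floor at 12.7 units. Every line runs downward, and the values at 6 h of PPP4C and WNT5B lie close to the floor in experiment 1.

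Lipid synthesis genes, which the SREBP factors control, were mostly lower. Of 25 tested genes of sterol and fatty acid synthesis, 15 were lower in both experiments and 3 higher in both, and 8 had both 6 h arrays below both 0 h arrays (32.0%, against 15.2% of all genes). The median log2 change was -0.38, with -0.68 in experiment 1 and -0.18 in experiment 2, and it became -0.13 or -0.22 when the 0 h or the 6 h array of experiment 1 was dropped. SCD, stearoyl-CoA desaturase, read 701 and 229 units at 0 h and 256 and 119 units at 6 h by its brightest probe set. The groups overlapped, since experiment 1 was brighter at both times, but all 4 probe sets of SCD were lower in both experiments, by -1.20 to -2.75 on average. MSMO1, a sterol C4-methyl oxidase, read 215 and 78.5 units before and 78.0 and 34.4 units after. INSIG1, which retains the SREBP complex in the endoplasmic reticulum, was 327 and 160 units at 0 h and 113 and 115 units at 6 h, and FASN, fatty acid synthase, 437 and 260 units at 0 h and 174 and 192 units at 6 h. ECI1, an isomerase of mitochondrial fatty acid oxidation rather than synthesis, was 122 and 198 units before and 42.0 and 85.1 units after.

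Oxidative phosphorylation genes, which encode the respiratory chain complexes and ATP synthase, showed small differences of one direction. Of 64 tested, 40 were lower in both experiments and 2 higher in both, and 28 had both 6 h arrays below both 0 h arrays (43.8%, against 15.2% of all genes). The median log2 change was -0.29, with -0.12 in experiment 1 and -0.48 in experiment 2. It was negative under each alternative scaling, and -0.14 or -0.43 when the 0 h array of experiment 2 or of experiment 1 was dropped. NDUFA3 and NDUFA1 are subunits of complex I: NDUFA3 read 416 and 290 units at 0 h and 169 and 155 units at 6 h, and NDUFA1 1669 and 1636 units at 0 h and 1068 and 288 units at 6 h. COX7C of complex IV was 2484 and 1700 units before and 1606 and 749 units after, and all 3 of its probe sets were lower in both experiments. ATP5PO of the ATP synthase was 1322 and 1261 units at 0 h and 664 and 728 units at 6 h, while its other probe set read 157 and 134 units before and 165 and 127 units after. The mitochondrial ribosome had 20 of 47 genes lower in both experiments (42.6%, against 24.9% of all genes) and 7 higher in both. Its median was -0.13, with 0.03 in experiment 1 and -0.20 in experiment 2, and it turned to 0.04 when the 0 h array of experiment 2 was dropped. MRPL34, one of its large-subunit genes, read 392 and 475 units before and 295 and 177 units after. The cytosolic ribosome had a median of -0.02 over 52 genes, which was 0.31 under trimmed-mean scaling and 0.19 under loess. RPL3 was 4906 and 5210 units before and 3109 and 3000 units after.

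Endoplasmic reticulum chaperones were lower in both experiments in 13 of 23 (56.5%, against 24.9% of all genes) and higher in both in 4 of 23. Both 6 h arrays lay below both 0 h arrays for 4 (17.4%, close to the 15.2% of all genes). The median log2 change was -0.36 (-0.17 and -0.55). The median was -0.23 when the 0 h array of experiment 2 was dropped and -0.22 by the median over probe sets. HSPA5, the chaperone BiP, read 1971 and 1263 units at 0 h and 1072 and 776 units at 6 h. SSR1, of the translocon-associated complex, read 964 and 514 units at 0 h and 579 and 308 units at 6 h, with overlapping groups. Cytosolic heat shock proteins and chaperonins had 9 of 28 lower in both experiments (32.1%, against 24.9% of all genes) and 1 higher in both. Their medians had opposite signs, 0.13 in experiment 1 and -0.43 in experiment 2. HSPE1, the mitochondrial co-chaperonin, was lower in both experiments but mostly in experiment 2, with 946 and 781 units before and 845 and 143 units after. The oxidative stress list had a median of -0.20 over 26 genes (0.07 and -0.39), which became 0.01 when the 0 h array of experiment 2 was dropped. In it PRDX1, a peroxiredoxin, was 3587 and 3240 units before and 3274 and 1066 units after, and MT1E, a metallothionein, was 530 and 362 units before and 285 and 191 units after. CAT, catalase, read 911 and 433 units before and 467 and 319 units after. The proteasome (31 genes) had a median of 0.01, with 0.18 in experiment 1 and -0.35 in experiment 2.

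Cell cycle genes differed between the experiments. Of 52 mitosis genes, 21 were higher in both experiments (40.4%, against 27.0% of all genes) and 0 lower in both, yet 31 went opposite ways. Their median was 0.62 in experiment 1, -0.09 in experiment 2 and 0.27 for the mean change. AURKA and AURKB, the mitotic kinases, read 289 and 491 units and 142 and 316 units at 0 h, and 718 and 502 units and 303 and 365 units at 6 h. Dropping the 0 h or the 6 h array of experiment 1 brought the median of the list to 0.01 or -0.08. The mean difference of AURKA became -0.09 when that 0 h array was dropped, and the other 2 probe sets of AURKA changed by 0.01 and -0.82. KIF14, a kinesin of cytokinesis, was 145 and 176 units before and 244 and 245 units after. DNA replication and G1/S genes (59) had medians of 0.31 and -0.16. Of them 18 were higher in both (30.5%, against 27.0% of all genes) and 14 lower in both (23.7%, against 24.9%). CDC25A, a phosphatase that activates cyclin-dependent kinases, read 50.5 and 83.3 units before and 96.1 and 136 units after by 1 of its 2 probe sets. CDK6, a G1 kinase, had only the floor value at 0 h and read 50.8 and 28.5 units at 6 h. RBL2, the retinoblastoma relative p130, was 92.5 and 74.3 units before and 65.2 and 24.7 units after. The number of arrays does not allow the difference between experiments to be tested.

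Regulators of splicing of the SR, CLK and cyclin L kind were higher in 15 of 30 and lower in 5 of 30 in both experiments, with a median of 0.26 (0.09 and 0.49). That median became 0.14 or 0.13 when the 0 h or the 6 h array of experiment 2 was dropped, and 0.42 when the 6 h array of experiment 1 was. CCNL1, cyclin L1, read 190 and 304 units at 0 h and 461 and 843 units at 6 h (1.37 ± 0.22, adjusted p 0.132, limma). CCNL2, cyclin L2, went the other way, with 114 and 113 units before and 51.2 and 12.7 units after. RBM39 and RBM5, RNA-binding splicing factors, were both higher: RBM39 read 736 and 1017 units before and 1170 and 2370 units after, and RBM5 200 and 372 units before and 424 and 678 units after. Core spliceosome and hnRNP genes (49) had a median of -0.07, with SNRPD3, a core Sm protein, at 1560 and 1225 units before and 1081 and 508 units after. HNRNPH1, a splicing regulator with 2 of 4 probe sets higher in both experiments, read 1647 and 1530 units before and 3306 and 2336 units after.

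The C2H2 zinc finger genes of the ZNF series, which encode DNA-binding proteins, formed a further upward-shifted group. Of 53 tested, 29 were higher in both experiments and 7 lower in both, and 23 had both 6 h arrays above both 0 h arrays (43.4%, against 17.0% of all genes). The median was 0.42, with 0.32 and 0.46 in the experiments, and between 0.26 (the 6 h array of experiment 2 dropped) and 0.58 (trimmed-mean scaling) under the alternatives. ZNF14 read 63.0 and 43.0 units at 0 h and 101 and 106 units at 6 h, ZNF155 19.2 and 19.7 units at 0 h and 45.0 and 43.1 units at 6 h, and ZNF331 116 and 76.5 units at 0 h and 153 and 350 units at 6 h. These genes are dim: the median of their values was 64.2 units, against 86.4 units over all genes.

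Markers of the mesenchymal state as a list had a median of 0.01 over 16 genes. Within the related lists, SNAI2, a repressor of epithelial genes also called SLUG, read 144 and 143 units at 0 h and 284 and 351 units at 6 h, and CDH2, N-cadherin, 345 and 234 units at 0 h and 472 and 432 units at 6 h. CDH11 of the same family was 841 and 292 units before and 568 and 189 units after. SMAD7, the inhibitor of TGF-beta receptors, was 91.1 and 121 units before and 226 and 224 units after, although the TGF-beta and YAP targets as a list had experiment medians of 0.00 and -0.02, and 0.25 for the mean change, which became -0.01 when the 0 h array of experiment 2 was dropped. Collagens and matrix genes (40) had a median of -0.06; TNFAIP6, a hyaluronan-binding protein, was 12.7 and 15.8 units before and 48.6 and 40.9 units after by 1 of its 2 probe sets. In the actin cytoskeleton list (33 genes, median -0.04), ZYX, zyxin, read 498 and 612 units before and 718 and 1151 units after, and ACTN4, an alpha-actinin, 592 and 826 units before and 335 and 543 units after. Integrins and laminins (20) had a median of -0.17 and retinoid receptors and targets (16) one of -0.07, and dropping an array moved the latter between -0.32 and 0.25.

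Hypoxia and glycolysis genes (37) had a median of -0.09, with PDK1, a kinase that holds back pyruvate dehydrogenase, at 63.0 and 36.5 units before and 16.6 and 12.7 units after, and MXI1, a MYC antagonist, at 346 and 278 units before and 142 and 149 units after. ENO2, an enolase, read 63.5 and 81.6 units before and 25 and 53.7 units after. The interferon response list had 15 of 35 lower in both experiments (42.9%, against 24.9% of all genes) and 7 higher in both. Its median was -0.40, but -0.41 and 0.00 in the experiments and -0.15 by the median over probe sets. It became -0.07 or -0.04 when the 0 h or the 6 h array of experiment 1 was dropped. PSMB8, an immunoproteasome subunit, was 380 and 288 units before and 140 and 176 units after, whereas IRF7, a factor of the interferon response, was 28.4 and 38.4 units before and 88.7 and 93.4 units after.

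**Figure D5:**
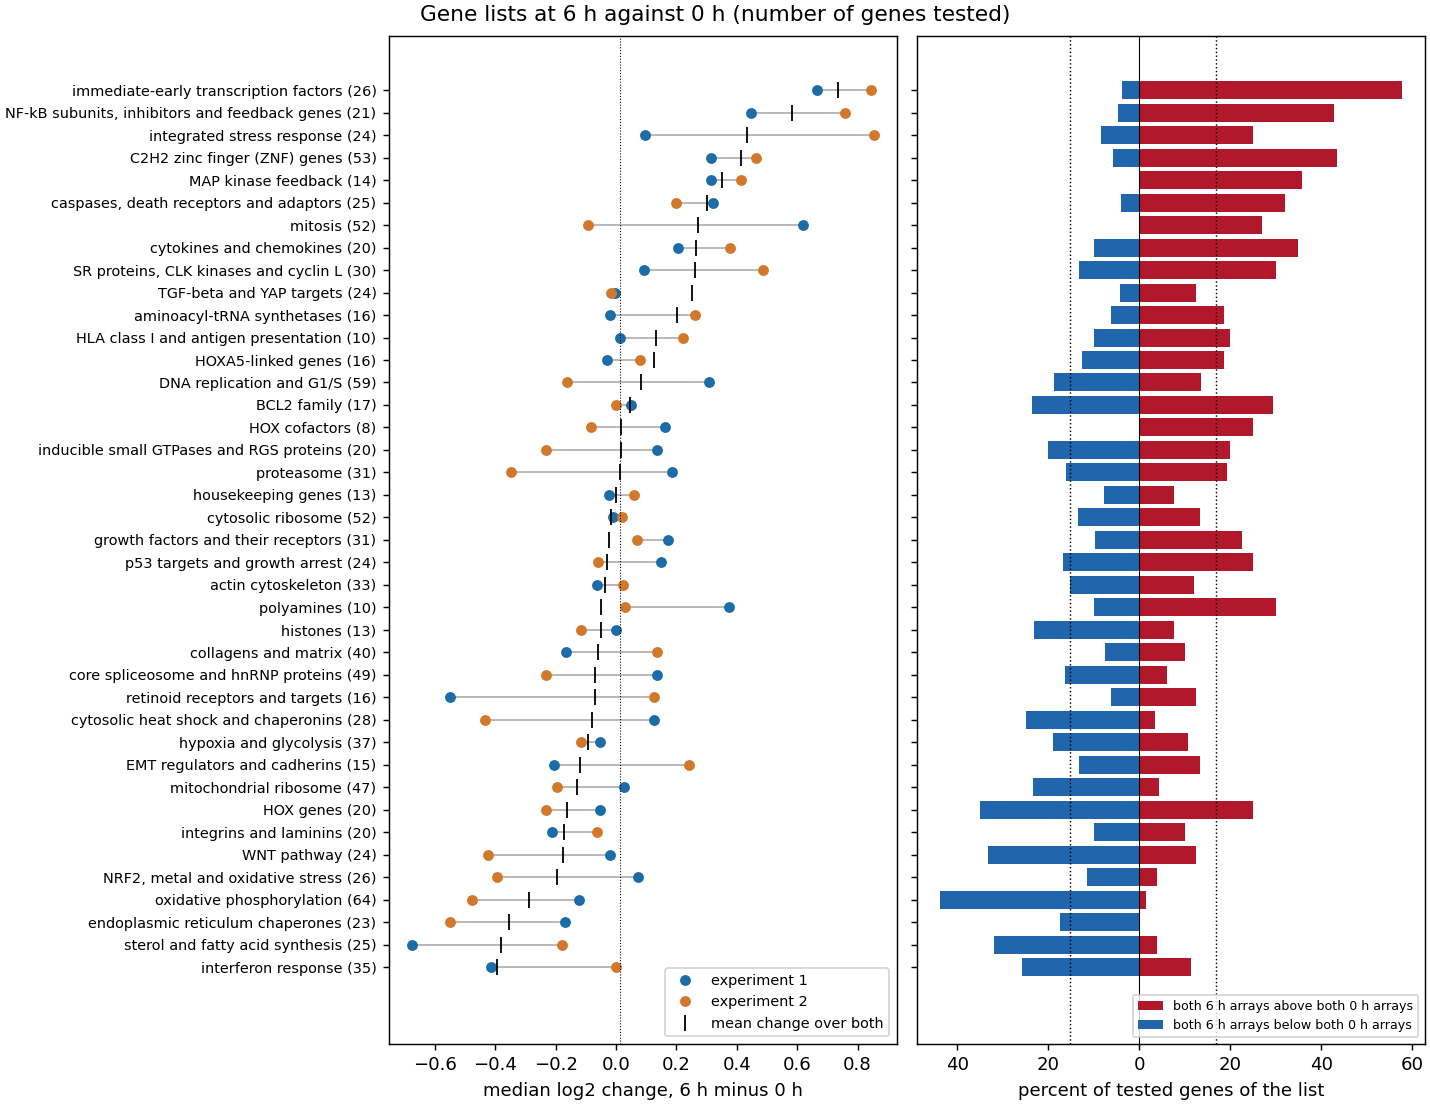
Gene groups ordered by the median log2 change at 6 h, with the number of genes tested in brackets: the left panel shows the median in each experiment (points) and of the mean change (bars), and the right panel the percentage of genes with both 6 h arrays above (red) or below (blue) both 0 h arrays, with dotted lines at the values over all genes (17.0% and 15.2%). Immediate-early factors lead at 0.74, and the mitosis list has its experiments on opposite sides of 0.

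Markers of other cell types were dim and had no common shift. The 14 tested luminal epithelial markers had a median level of 35.6 units and a median change of 0.07, which was 0.42 under trimmed-mean scaling. The largest mean difference of that list was in TFF1, a trefoil peptide, at 17.5 and 13.7 units before and 46.9 and 52.8 units after. The 9 leukocyte, 9 nerve and muscle, 6 erythroid and hepatic and 4 endothelial markers tested had median levels of 36.8, 17.7, 19.2 and 24.4 units and median changes of -0.04, -0.35, 0.09 and -0.09. Of the 9 nerve and muscle markers, 4 had both 6 h arrays below both 0 h arrays (44.4%, against 15.2% of all genes), and 1 was higher in both experiments. The nerve and muscle median turned to 0.08 or 0.23 when the 0 h or the 6 h array of experiment 2 was dropped. The part of these markers in the results was not tested. In such bulk RNA, fewer cells of a kind and less RNA per cell cannot be told apart. The 13 housekeeping genes had a median of 0.00, which was 0.37 under trimmed-mean scaling and 0.30 under loess.

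Some bright genes went strongly opposite ways in the experiments. PCNA, the sliding clamp of DNA replication, read 300 and 466 units at 0 h and 611 and 105 units at 6 h. ID3, an inhibitor of basic helix-loop-helix factors, read 361 and 481 units before and 1008 and 131 units after, and TUBB3, a beta-tubulin, 646 and 1929 units before and 1542 and 782 units after. In all of these, and in GNL1 (77.5 and 87.3 units before, 170 and 25 units after), the gene was higher at 6 h in experiment 1 and lower in experiment 2. The reverse held for SYNGR3, a synaptic vesicle protein (107 and 135 units before, 35.4 and 364 units after), TNKS2, tankyrase 2 (261 and 131 units before, 112 and 312 units after), NIT1 (185 and 90.5 units before, 83.8 and 176 units after) and ZNF629 (142 and 115 units before, 78.3 and 260 units after). The means of such genes hide the differences within each experiment, which for ID3 were 1.48 and -1.87 on the log2 scale. These are as large as those of IER2 (1.43 and 1.44) but smaller than those of GADD45B (2.63 and 2.33).

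Of the 10436 genes, 146 had the floor value on each 0 h array and more than it on each 6 h array, and 130 did the reverse. They are part of the 1772 and 1586 genes without overlap counted above. For these only a bound against the floor can be given. It was taken from the mean log2 value of the 2 arrays above the floor, so a single experiment can lie below it. POLM, for example, read 33.5 and 83.1 units at 6 h. PCDH12, a protocadherin, was at least 5.83-fold higher, POLM, a DNA repair polymerase, at least 4.15-fold, and SIGLEC5, a sialic acid-binding lectin, at least 4.12-fold. ATG16L1 of autophagy was at least 3.71-fold higher and NPC1L1, an intestinal sterol transporter, at least 3.61-fold. In the other direction NME3, a nucleoside diphosphate kinase, was at least 4.31-fold lower, GDF3, a TGF-beta family ligand, at least 3.55-fold, SV2A, a synaptic vesicle protein, at least 3.53-fold and CA5BP1, a pseudogene, at least 3.36-fold.

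The 9 h arrays share the 0 h controls, and they entered the fit above through its estimate of the spread. Their values therefore only stand beside those above. At 9 h EGR1 read 616 and 1081 units, GADD45B 1369 and 1296 units, NFKBIA 710 and 449 units, LIF 279 and 435 units and CXCL8 2463 and 210 units. PTN was 179 and 1187 units at 9 h by its leading probe set. PPP4C was 62.5 and 70.8 units, between its 0 h and 6 h values, and MINDY1 34.4 and 18.1 units, close to its 6 h values. SCD read 285 and 122 units and PCNA 387 and 130 units at 9 h.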

How the data were processed

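The authors deposited 1 linear intensity per probe set and array, positive and not scaled between arrays. The software behind them is not stated in the labels. All 6 arrays of 0, 6 and 9 h in 2 experiments were read, the 68 control probe sets removed, and the rest quantile normalised together, given a floor (the 25th percentile of all positive values) and log2 transformed. Probe sets above the floor on at least 2 of the 6 arrays were fitted in limma 3.58.1 (R 4.3.3) with time and experiment, an intensity trend, 2 residual degrees of freedom, two-sided tests and Benjamini-Hochberg adjustment over all of them. The number of arrays limits the precision. The fit was checked on simulated data drawn from limma's own variance model, which favours it.

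The experiment number pairs the arrays, since the labels call the experiments separate batches of RNA. Deviations from the group means correlated at 0.247 (0 and 6 h), 0.336 (0 and 9 h) and 0.391 (6 and 9 h) between arrays of the same number. The label of the experiment 2 array at 6 h names lot batch 1. It was placed by its title, and a fit by lot batch was an alternative.

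The probe table lists 20114 probe sets, 19071 with 1 symbol and 1043 with several, 19059 updated through Entrez numbers. The probe set with the highest mean stood for a gene. Promoters came from RefSeq (GRCh38.p14): 31 of 42 higher and 15 of 17 lower better measured genes matched.

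The members and 46 gene lists were chosen with earlier results of these data known. Genes were named by a rule: the 12 per direction with the largest smaller-of-both change among better measured genes, those whose several probe sets all differed at least 2-fold, the 5 per direction with the largest bound against the floor, up to 4 per list of 1 direction, every HOXA5-linked gene, and the 4 per direction with the largest opposite changes; among these the genes described were picked after their values were seen. Alternatives covered scaling, floor, filter, arrays used, pairing, variance moderation and probe set choice.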

Additional observations from a re-analysis of the deposited data

How the results depend on the processing

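The count of probe sets past an adjusted p of 0.05 in limma (0 with the replicate block) was also 0 in the fit with no replicate block, where the lowest adjusted p was 0.969, with the lot line as the block (0.556), and with unscaled values, loess, a floor at the 10th percentile, no filter and no intensity trend. It was 4 with trimmed-mean scaling, 14 with 16 units added in place of the floor, 25 with the filter on all 4 arrays, 8 with robust moderation, 115 with the 0 h and 6 h arrays alone (1 residual degree of freedom), and 5 to 162 when an array was left out, where the lone array is assumed to vary like the others. The counts of genes at least 2-fold higher and lower in both experiments (123 and 109) were 216 and 58 with trimmed-mean scaling, 5 and 1753 unscaled, 254 and 204 with the lower floor, 53 and 39 with the added units, and 74 and 42 with the filter on all 4 arrays. Unscaled, 26 genes had both 6 h arrays above both 0 h arrays and 7377 below. The log2 change turned sign for PTN (-0.073), MET (-0.18) and CDC25A (-0.0092) by the median over probe sets, for HIF1A (-0.0182) and MET (-0.14) unscaled relative to all genes, for HIF1A with the lot-line block (-0.16), and for AURKA when an array was left out (-0.0936 to 1.43, negative without the 0 h array of experiment 1). The cause was not tested, apart from fewer residual degrees of freedom and fewer probe sets by construction. Dim probe sets limit these data, since a floor of 12.7 units turns low values into bounds.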
